A study of Mus musculus with 3 samples.

Results

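The MNK kinases, their substrate eIF4E and the CREB group of transcription factors and coactivators were followed here as 10 genes, Mknk1, Mknk2, Eif4e, Creb1, Atf1, Crem, Crtc1, Crtc2, Crtc3 and Crebbp, of 21883 protein-coding genes. For each gene, every open chromatin peak in the gene or within 20 kb of it on either side was taken, a stretch called the window below. Overlapping peaks of different libraries were merged into regions, and the 10 windows held 28 of the 24981 regions of the series. The data are ATAC-seq peak lists, in which a transposase marks accessible DNA, from 3 libraries of 50000 cells each. All libraries came from hematopoietic stem cells (HSCs) of adult mice with the genotype Mx1-Cre-/-;mTORflox/flox. These mice had received poly(I:C), an inducer of interferon, and carried no Cre, so that the mTOR gene was intact. The sorted cells were kept in StemSpan SFEM medium and given the solvent DMSO, 200 nM AZD2014, an inhibitor of the mTOR kinase site, or 1 µM rapamycin, which inhibits mTOR as a complex with FKBP proteins. The doses differ, and the sources used here do not give the time of exposure. The inhibitors are therefore set side by side and not compared at matched exposure. There was 1 library per condition. There were therefore no replicates against which a difference could be judged, and no test was made.

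MNK1 and MNK2 are kinases that act downstream of MAP kinase signalling and phosphorylate eIF4E, the protein that binds the cap of mRNAs at the start of translation. The mTOR complex 1 acts on the same protein by another route, since it phosphorylates the 4E-BP proteins that hold eIF4E inactive. CREB1, ATF1 and CREM are related leucine zipper factors that bind cAMP response elements, the CRTC proteins are coactivators that enter the nucleus when SIK kinases are inactive, and CBP, encoded by Crebbp, is the acetyltransferase that phosphorylated CREB recruits. The series title concerns adaptation of stem cells to mTOR targeting, and the comparison made here asks whether accessible sites at these genes differed between the solvent and either inhibitor.

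The starts of all 8 genes with an annotated start in the table used here had a peak within 1 kb in each of the 3 lists, and Crem and Crtc2, for which no start was used, had one at an annotated end of the gene in each. For all protein-coding genes with an annotated start the share with such a peak was 48.5% under DMSO, 51.8% under AZD2014, 49.5% under rapamycin and 46.2% in all 3 lists. Of the 28 regions, 20 (71.4%, against 54.7% of all regions of the series) were common to the 3 lists. Another 5 were found under AZD2014 alone (17.9%, against 16.0% of all regions), 2 under both inhibitors and not DMSO (7.14%, against 8.63%) and 1 under DMSO alone (3.57%, against 5.80%). No region was found under rapamycin alone, where 7.42% of all regions were. None was found under DMSO and AZD2014 without rapamycin (5.63% of all regions) or under DMSO and rapamycin without AZD2014 (1.80%). The shares under AZD2014 alone and under both inhibitors were near those of the series. The share common to all lists was higher than in the series, and this difference was not tested. All 8 regions at own starts and all 6 at starts of other genes were common. Of the others, 3 of 6 in gene bodies, 2 of 3 at gene ends and 1 of 5 in flanks were. The share in the series is over regions at starts and elsewhere alike, so the 2 shares differ in kind of region. The 10 genes were also chosen with earlier results of these data known. The 8 regions missing from a list lay away from the starts of the 10 genes, and every peak in them scored in the lower 50% of its list.

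The sequences below are the 250 bases before the start of 5 of the genes on mm10, 5′ to 3′, taken from RefSeq (GRCm38.p6, the assembly behind mm10). They are shown because they lie at peaks found in every list, at the MNK and eIF4E genes and the CREB factors that have an annotated start. Capitals mark CACGTG, the E-box bound by Myc and related factors, and TGACG or CGTCA, the half-site of the cAMP response element TGACGTCA read on either strand. In Eif4e the second E-box and CGTCA overlap in the run CGTCACGTG.
Mknk1, chr4:115838948-115839197, plus strand: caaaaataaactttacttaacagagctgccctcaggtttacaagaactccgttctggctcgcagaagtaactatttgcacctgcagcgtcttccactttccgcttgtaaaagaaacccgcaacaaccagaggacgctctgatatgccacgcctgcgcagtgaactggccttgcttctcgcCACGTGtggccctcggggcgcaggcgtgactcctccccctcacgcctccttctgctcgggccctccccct
Mknk2, chr10:80676294-80676543, minus strand: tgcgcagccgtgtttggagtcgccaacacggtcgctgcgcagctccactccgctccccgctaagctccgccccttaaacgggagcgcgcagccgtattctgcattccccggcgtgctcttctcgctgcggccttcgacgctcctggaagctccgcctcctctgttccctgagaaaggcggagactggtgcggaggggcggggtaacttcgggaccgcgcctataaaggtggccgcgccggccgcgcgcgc
Eif4e, chr3:138527018-138527267, plus strand: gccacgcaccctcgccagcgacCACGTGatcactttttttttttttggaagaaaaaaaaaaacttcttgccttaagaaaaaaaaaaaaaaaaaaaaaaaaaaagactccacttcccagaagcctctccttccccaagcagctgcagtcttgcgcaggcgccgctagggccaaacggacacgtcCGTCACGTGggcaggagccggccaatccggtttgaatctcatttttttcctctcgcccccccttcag
Creb1, chr1:64532554-64532803, plus strand: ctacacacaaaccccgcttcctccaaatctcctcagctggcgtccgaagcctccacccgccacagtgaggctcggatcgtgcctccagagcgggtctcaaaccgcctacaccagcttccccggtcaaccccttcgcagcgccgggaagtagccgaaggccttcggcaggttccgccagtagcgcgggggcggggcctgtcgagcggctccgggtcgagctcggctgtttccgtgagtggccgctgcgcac
Atf1, chr15:100227609-100227858, plus strand: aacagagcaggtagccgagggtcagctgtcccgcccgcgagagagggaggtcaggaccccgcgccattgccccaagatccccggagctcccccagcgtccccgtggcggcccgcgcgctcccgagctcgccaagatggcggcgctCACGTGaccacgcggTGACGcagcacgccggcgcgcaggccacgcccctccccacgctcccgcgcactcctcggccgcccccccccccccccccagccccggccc
The whole printed stretch lay inside a peak of every list, except at Mknk1, where the rapamycin peak covered 159 of the 250 bases, those nearest the start. Because stretches at peaks were chosen for printing, nothing is drawn from this. Eif4e has another annotated start, at 138526191, and of the 250 bases before it 0 lay in a peak of any list. That stretch held no E-box or half-site and is not printed. The full element TGACGTCA was in none of the 10 stretches available for the 8 genes, and it was in 1.92% of 21262 such stretches of protein-coding genes. A half-site was in 2 of the 10 stretches, from Eif4e and Atf1, against 20.2% of all stretches. An E-box was in 4 of the 10 stretches, from 3 genes, Mknk1, Eif4e and Atf1, against 6.63% of all stretches. The stretches of Mknk1 overlap and hold the same E-box. The E-box was searched only after these sequences were seen, so nothing is drawn from the difference. The E-boxes of Eif4e begin 228 and 64 bases before the start, that of Mknk1 70 and that of Atf1 105 bases before it. These matches describe letters in a window and do not show binding.

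**Figure D1:**
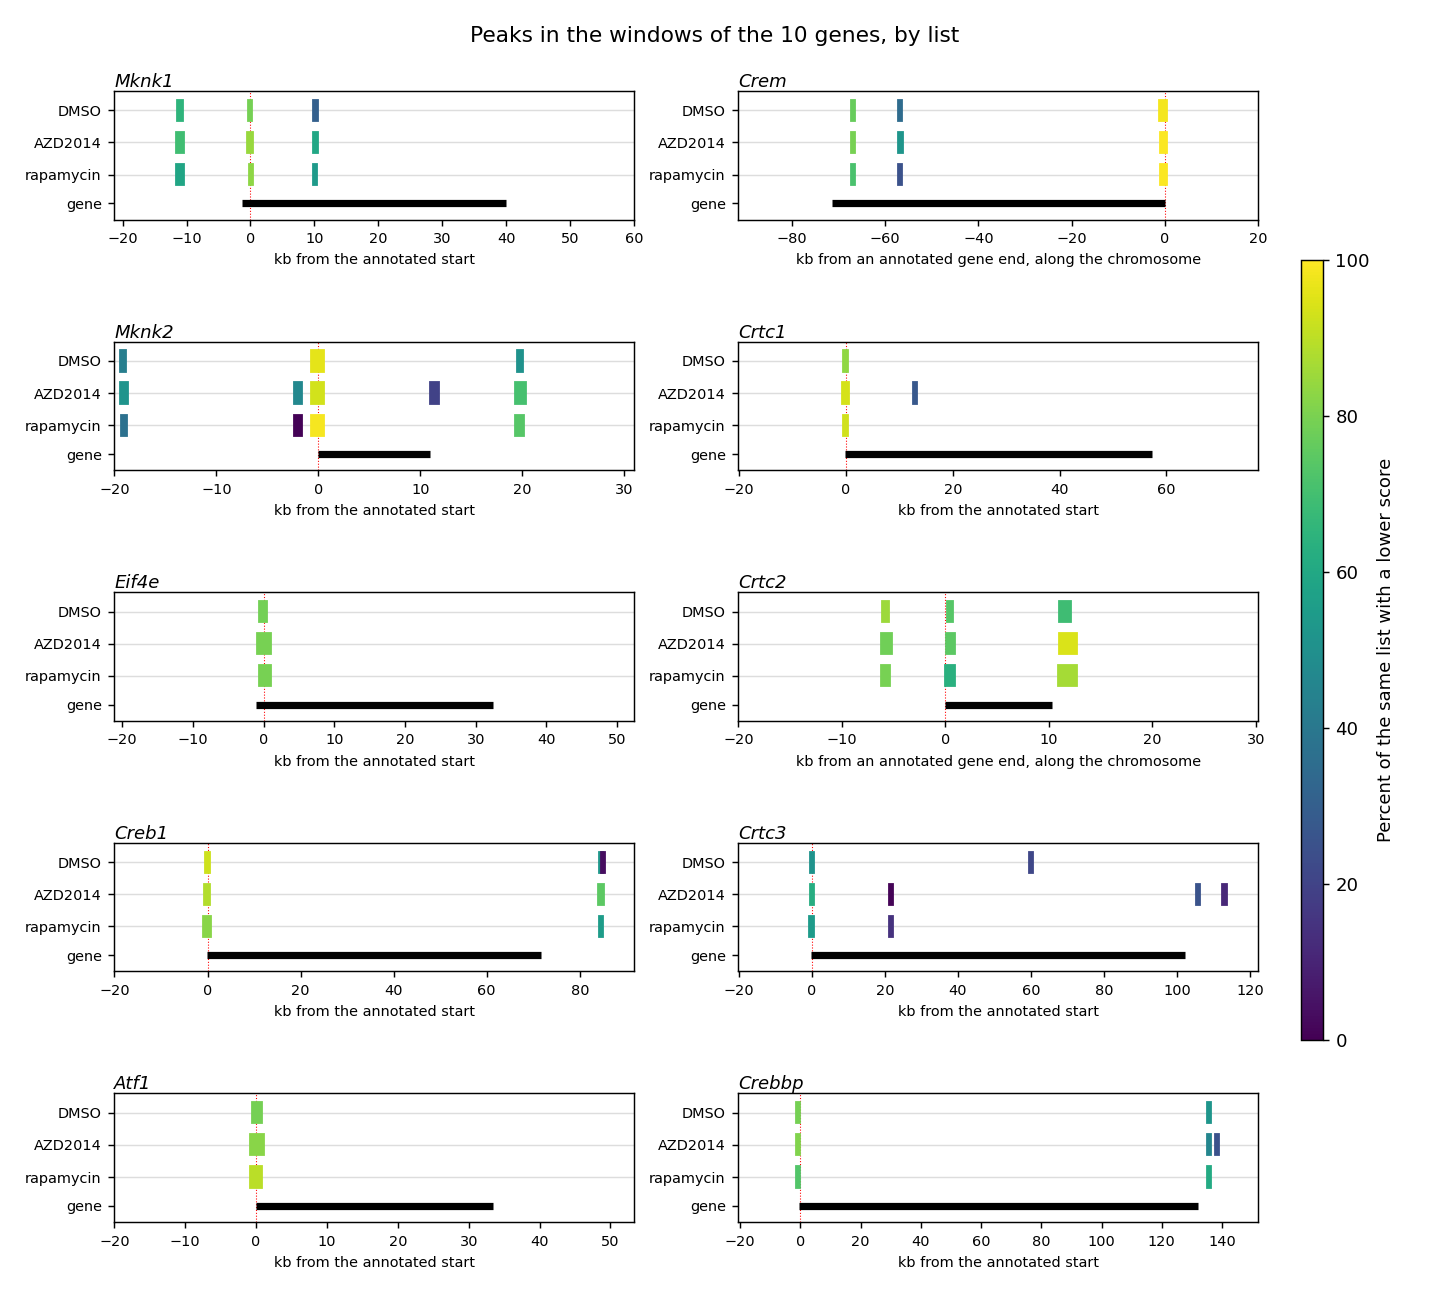
Peaks of the DMSO, AZD2014 and rapamycin lists in the windows of the 10 genes, with the distance in kb from the annotated start on the horizontal axis (from an annotated gene end for Crem and Crtc2) and the gene as a black bar. Colour gives the percent of the same list with a lower score, short peaks are drawn at a minimum width, and a reader should see a peak at the start (or, for Crem and Crtc2, a gene end) in all 3 lists, with the peaks found in fewer lists at Mknk2, Crtc1, Crtc3 and Crebbp.

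Each peak carries a score given by the authors, which orders peaks within a list and is not on a shown common scale between lists. To set the lists side by side, the 13670 regions common to all 3 lists were ordered by score in each, and a region's position is given from 0, the lowest, to 100, the highest. The standard deviation of the change in position over all common regions was 12.9 points between DMSO and AZD2014, 13.45 points between DMSO and rapamycin and 11.7 points between the inhibitors, which shows how far the order moves from one library to the next. Below, regions of like position are those in the same 10-point stretch of the order in the first list of a pair, DMSO first. Their standard deviation measures spread about their own mean change, which is not given here. A change of at least 10 points was counted.

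Mknk1, the gene of MNK1, lies on chromosome 4 from 115837943 to 115879256, and its window held 3 peaks in every list. The start region (115838689 to 115839617) scored 260 under DMSO, 393 under AZD2014 and 328 under rapamycin, at positions 73.9, 76.0 and 77.3. These positions lie within 4 points of each other, less than the standard deviation of 10.5 points for regions of like position between DMSO and AZD2014. A second region, 10.1 kb downstream of the start in the gene body (115848987 to 115849719), scored 80.8, 181 and 142. It stood at position 16.9 under DMSO and at 37.5 and 39.1 under AZD2014 and rapamycin, so that it was low in the solvent and higher by 20.6 and 22.2 points with the inhibitors. The standard deviations for regions of like position were 13.1 and 13.9 points. Both differences are taken from the same DMSO value, so they are not separate observations. The third Mknk1 region, at the start of the neighbouring gene Mob3c (115827582 to 115828832), stood at 56.4 under DMSO, 52.2 under AZD2014 and 45.1 under rapamycin.

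Mknk2, the gene of MNK2, lies on chromosome 10 from 80665318 to 80676293 and is transcribed from the minus strand. Its start region (80675740 to 80677039) was among the strongest of the series, with scores of 463 (DMSO), 539 (AZD2014) and 676 (rapamycin). These are rank 680 of 17189 peaks, rank 1417 of 21321 and rank 250 of 18233. The positions among common regions were 95.03, 89.6 and 98.2, with rapamycin highest and AZD2014 lowest. The changes from DMSO were -5.38 and 3.15 points, against standard deviations of 4.86 and 4.56 points at like position. The peak was 1241 bp wide under DMSO, 1257 bp under AZD2014 and 1246 bp under rapamycin, whereas peaks of common regions were generally wider under the inhibitors.

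In the Mknk2 window 3 DMSO, 5 AZD2014 and 4 rapamycin peaks were listed, the widest difference of the 10 genes together with Crtc3. A region about 2 kb upstream of the start (80677870 to 80678710) had a peak under AZD2014 (score 122, above 46.5% of that list) and under rapamycin (score 50.4, above 0.75% of that list) and none under DMSO. The nearest DMSO peak, that of the start itself, ended 0.86 kb from the AZD2014 peak. For comparison, each list was divided by score into 10 bands of equal size. Of AZD2014 peaks in the same band, 26.0% had no DMSO partner, and of rapamycin peaks in the band of the rapamycin peak 72.1% had none. Of the 7 AZD2014 peaks in the 10 windows without a DMSO partner, this one had the highest score. A peak at the far end of the gene (80664458 to 80665307, score 67.3) was found under AZD2014 alone, and 71.5% of AZD2014 peaks in its band had no DMSO partner. Of the common regions, the one at the start of Btbd2, 8.32 kb beyond the far end of Mknk2, stood at 38.4 under DMSO, 54.2 under AZD2014 and 64.6 under rapamycin. Another, inside the neighbouring gene Mob3a 18.7 kb upstream of Mknk2 (80695003 to 80695717), stood at 29.0, 26.3 and 19.97.

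Eif4e, on chromosome 3 from 138526191 to 138559696, had a single region in its window, over the start used for the sequence above (138526285 to 138528306). Its scores were 257 (DMSO), 336 (AZD2014) and 295 (rapamycin). The positions, 73.3, 68.1 and 72.7, span about 5 points, less than the spread for regions of like position (10.5 points between DMSO and AZD2014). The peak was 1140 bp wide under DMSO, 2020 bp under AZD2014 and 1608 bp under rapamycin. No distal peak was listed within 20 kb of this gene in any library.

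Among the CREB factors, Creb1 on chromosome 1 (64532794 to 64604548) had a start region from 64531918 to 64533545. It scored 389 (DMSO), 447 (AZD2014) and 321 (rapamycin). In the order of common regions it stood at 90.2, 82.1 and 76.3, highest under DMSO. The decrease of 13.9 points under rapamycin compares with a standard deviation of 4.56 points for regions of like position. The DMSO position is at the lower edge of that stretch, however, and in the next lower stretch the standard deviation was 8.04 points. The value of 4.56 points may therefore understate the spread at this position. Creb1 had 3 window peaks under DMSO and 2 under each inhibitor, but this is not a lost site. The other 2 DMSO peaks (601 and 265 bp wide) lie at the start of the neighbouring gene Mettl21a, inside the stretch of 1184 bp that AZD2014 covered with 1 peak, and the rapamycin peak of 742 bp spans the larger and touches the edge of the smaller. That region, merged across lists, stood at 41.2 with DMSO, 60.9 with AZD2014 and 40.4 with rapamycin.

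Atf1, on chromosome 15 from 100227859 to 100261248, had 1 region, at its start (100226935 to 100228939). The scores were 261 (DMSO), 366 (AZD2014) and 407 (rapamycin). The positions 74.0, 72.4 and 86.4 put DMSO and AZD2014 together and rapamycin 12.5 points above DMSO, against a standard deviation of 10.7 points at like position. Like Eif4e, Atf1 had no peak elsewhere in its window.

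Crem, which also encodes the ICER repressors made from an internal promoter, lies on chromosome 18 from 3266354 to 3337773 and had 3 regions, all common to the 3 lists. The region over the upper annotated end (3336578 to 3338280) scored 554 under DMSO, 835 under AZD2014 and 754 under rapamycin. It ranked 278, 158 and 108 in the 3 lists, and its positions of 98.0, 98.9 and 99.2 were the highest of the 10 genes in each. Inside the gene, a region 4.12 kb from the lower end scored 244, 335 and 234, at positions 71.1, 67.9 and 61.9. Another 14.3 kb from that end scored 88.7, 143 and 72.6, at positions 21.2, 26.9 and 10.2, lowest under rapamycin. The strand and exons of Crem were not used, so these regions are placed by distance only.

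The CRTC coactivator genes differed from one another. Crtc1, on chromosome 8 from 70382352 to 70439702, had a start region (70439046 to 70440255) that scored 290 under DMSO, 540 under AZD2014 and 459 under rapamycin. Its positions were 78.9, 89.7 and 90.6, lowest under DMSO, with differences of 10.8 and 11.7 points against standard deviations of 10.5 and 10.7 points at like position. An AZD2014 peak in the gene body 13.0 kb downstream of the start (70426258 to 70426949, score 78.1) was found in that list alone. Of AZD2014 peaks in its score band, 58.3% had no DMSO partner and 52.6% no rapamycin partner.

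Crtc2 is a short gene on chromosome 3 (90253858 to 90264125) between close neighbours, and its 3 regions were common to all lists. The region at its lower end (90253840 to 90254821) scored 225 under DMSO, 289 under AZD2014 and 189 under rapamycin, at positions 67.1, 60.6 and 51.3. The position under rapamycin was 15.8 points below DMSO, against a standard deviation of 12.6 points at like position. The region at the start of Dennd4b, 0.646 kb beyond the other end of Crtc2 (90264771 to 90266614), went the other way, with positions of 60.9, 91.3 and 82.2. Its scores of 198, 564 and 366 gave the largest change in order of the 20 common regions, 30.4 points between DMSO and AZD2014. At the start of Slc39a1 on the other side, DMSO was highest, with positions of 81.5, 66.0 and 72.5. Regions within 20 kb around Crtc2 therefore did not move in order together.

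Crtc3, on chromosome 7 from 80586627 to 80688948, had the weakest start region of the 10 genes in every list. It scored 127 under DMSO, 196 under AZD2014 and 143 under rapamycin, at positions 39.1, 41.3 and 39.5, which differ by about 2 points. The other 4 regions of its window were each missing from at least 1 list. One in the gene body was found under both inhibitors (80666976 to 80667397, scores 50.6 and 60.3) and 1 under DMSO alone (80628689 to 80629110, score 68.6). A pair beyond the far end of the gene was found under AZD2014 alone (80575610 to 80576176 and 80582782 to 80583328, scores 58.4 and 76.1). All lay in the lowest 3 bands of their lists, in which between 20.9% and 80.3% of peaks lacked a partner in a given other list.

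Crebbp, the gene of CBP, lies on chromosome 16 from 4081334 to 4213957 on the minus strand. Its start region (4213598 to 4214579) covered the outer annotated end of the gene and lay upstream of the start used here. The scores were 259 under DMSO, 355 under AZD2014 and 244 under rapamycin, at positions 73.7, 70.7 and 63.8, with rapamycin lowest (-9.90 points from DMSO). Beyond the far end, the region at the start of Trap1 stood at 40.4 (DMSO), 19.6 (AZD2014) and 48.0 (rapamycin), the only common region of the 20 where AZD2014 was lower than both other lists by over 20 points. An AZD2014 peak inside Trap1 (4074780 to 4075291, score 75.2) was likewise in that list alone.

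**Figure D2:**
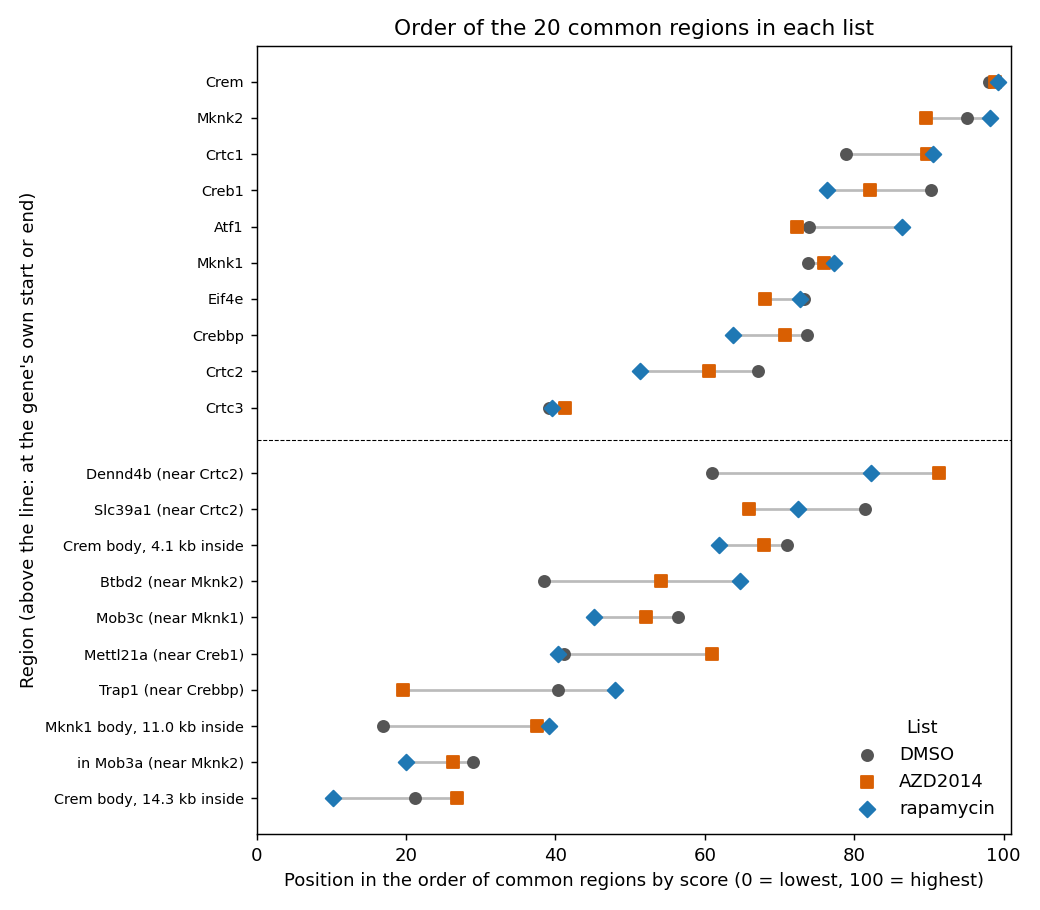
Position of each of the 20 common regions among all 13670 common regions ordered by score (horizontal axis, 0 lowest and 100 highest) in the DMSO, AZD2014 and rapamycin lists, with the regions at the genes' own starts or ends above the dashed line. Crem is highest and Crtc3 lowest of the 10 own regions in every list, and the longest bar is at Dennd4b near Crtc2, from 60.9 under DMSO to 91.3 under AZD2014.

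Taking the 10 own regions together, the median position was 73.9 under DMSO, 74.2 under AZD2014 and 76.8 under rapamycin, against 64.0, 64.7 and 64.3 for all 7423 common regions at a gene start. Between DMSO and AZD2014, 1 of the 10 own regions was at least 10 points higher (Crtc1, background 18.5% of common regions at a gene start) and none lower (16.1%). Between DMSO and rapamycin, 2 were higher (Atf1 and Crtc1, background 18.8%) and 2 lower (Creb1 and Crtc2, 17.5%). Between the inhibitors, 1 was higher under rapamycin (Atf1, background 14.8%) and none lower (16.1%). With 10 regions, these counts cannot be told from the background, and 9 of the 10 stayed within 10 points of DMSO under AZD2014 and 6 under rapamycin. The changes of the own regions ran from -8.11 to 10.8 points under AZD2014 and from -15.8 to 12.5 points under rapamycin. Those of the other 10 common regions, of which 6 lie at starts of neighbouring genes, ran from -20.8 to 30.4 and from -11.3 to 26.2 points. Most own regions stood high in the order, where the spread at like position is smaller, so the ranges are not compared further.

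Over all 20 common regions, 5 were at least 10 points higher under AZD2014 than DMSO (background 19.1%) and 2 lower (19.2%). Under rapamycin 5 were higher (20.3%) and 4 lower (20.2%) than under DMSO. Both comparisons use the same DMSO library, so the inhibitors' values are given side by side and no overlap is drawn from them. Among regions counted as higher, the changes under AZD2014 and rapamycin were 20.6 and 22.2 points at the gene body region of Mknk1, 15.8 and 26.2 at the start of Btbd2, 30.4 and 21.3 at the start of Dennd4b and 19.8 and -0.75 at the start of Mettl21a. The starts of Crtc1 and Atf1, given above, were also counted as higher. Those counted as lower under AZD2014 were the starts of Trap1 (-20.8, and 7.61 under rapamycin) and Slc39a1 (-15.5, and -8.95 under rapamycin). Those counted as lower under rapamycin were the Crtc2 end (-15.8, and -6.55 under AZD2014), the Creb1 start (-13.9, and -8.11), the start of Mob3c (-11.3, and -4.21) and the Crem region 14.3 kb inside the gene (-11.0, and 5.67). Between the inhibitors, 3 of the 20 were at least 10 points higher under rapamycin than AZD2014 (background 17.4%) and 2 lower (17.3%).

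Summed over the 10 windows there were 22 DMSO peaks, 27 AZD2014 peaks and 22 rapamycin peaks. The number under AZD2014 is 1.23 times that under DMSO, close to the ratio of 1.24 between the lengths of the whole lists, and rapamycin equalled DMSO, against a ratio of 1.06 for the lists. This closeness depends on the setting. In the same order the numbers were 15, 21 and 16 without peaks at the start of another gene, and 22, 25 and 21 with lists of equal length. Genes with more AZD2014 than DMSO peaks were Mknk2, Crtc1, Crtc3 and Crebbp, 4 of 10 against a background of 32.6% of protein-coding genes with any window peak, and Creb1 had fewer (background 8.84%). Under rapamycin Mknk2 had more than under DMSO (20.4%) and Creb1 fewer (15.6%), and 8 genes had equal numbers. Between the inhibitors, no gene had more rapamycin than AZD2014 peaks (9.62%) and 4 had fewer (29.2%). Per 100 kb of window, the 10 genes had 2.28 DMSO, 2.80 AZD2014 and 2.28 rapamycin peaks, and all protein-coding genes 1.504, 1.77 and 1.55. The outermost peak counted was 18.9 kb from Mknk2 (DMSO, score 104), and the nearest peak left out was 21.6 kb from Crtc2 (DMSO, score 158).

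**Figure D3:**
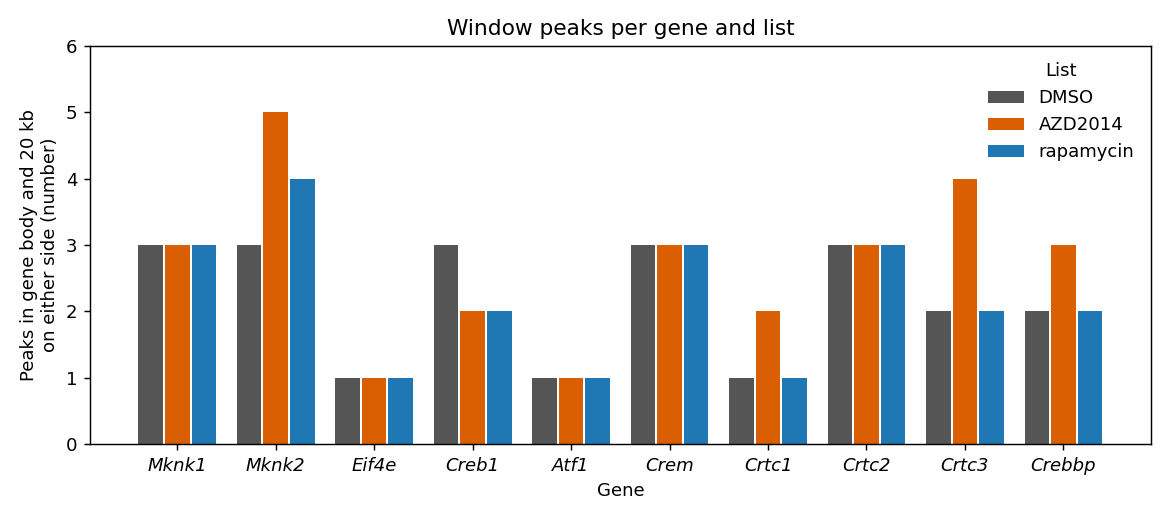
Number of peaks in the gene and 20 kb on either side (vertical axis) for each of the 10 genes (horizontal axis) in the DMSO, AZD2014 and rapamycin lists. AZD2014 has more peaks than DMSO at Mknk2, Crtc1, Crtc3 and Crebbp, and 5 genes have the same number in both.

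Of the 27 AZD2014 window peaks, 7 (25.9%, 95% Wilson interval 13.2 to 44.7) had no overlapping DMSO peak, against 29.1% of the whole AZD2014 list. Of the 22 rapamycin window peaks, 2 (9.09%, interval 2.53 to 27.8) had none, against 22.2%. In the other direction 1 of 22 DMSO peaks, that in the Crtc3 body, lacked an AZD2014 partner (4.55%, 0.807 to 21.8, background 11.1%) and the same peak lacked a rapamycin partner (background 16.8%). Between the inhibitors 5 of 27 AZD2014 peaks had no rapamycin partner (18.5%, 8.18 to 36.7, background 25.4%), and 0 of 22 rapamycin peaks lacked an AZD2014 partner (upper bound 14.9%, background 12.6%). Among all peaks, a partner was more frequent at higher scores. With each window peak set to the share in its own score band, 17.8% of AZD2014 peaks would lack a DMSO partner and 10.1% of rapamycin peaks would. Both shares lie within the intervals, which cover counting error only.

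**Figure D4:**
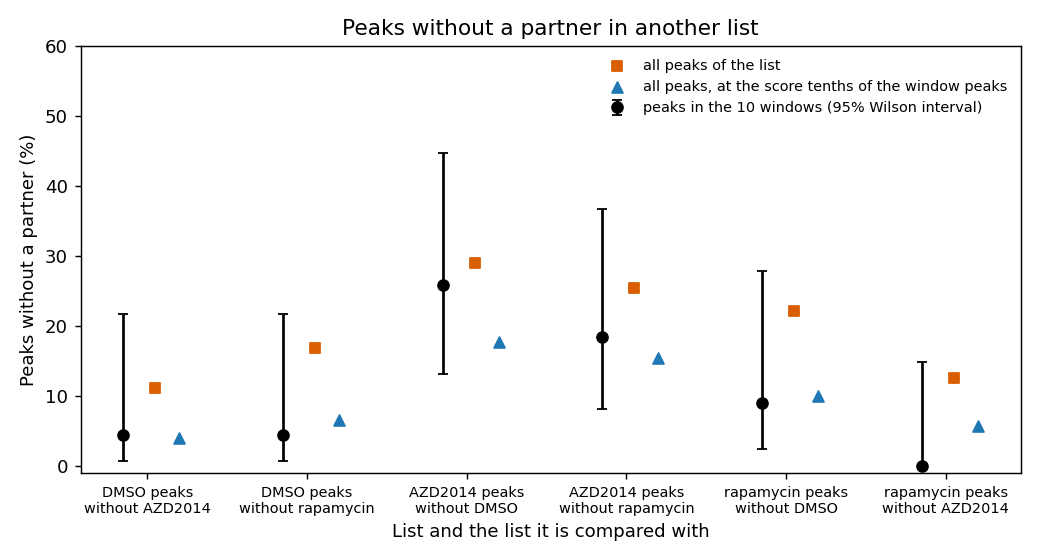
Percent of peaks without an overlapping peak in another list (vertical axis) for the 6 ordered pairs of lists (horizontal axis), for the window peaks with 95% Wilson intervals, for all peaks of the list, and for all peaks at the score bands of the window peaks. Every interval of the window peaks includes the share at like scores, for example 25.9% against 17.8% for AZD2014 peaks without a DMSO partner.

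Peaks were wider under the inhibitors at these genes as elsewhere. In the 19 common regions with 1 peak in each list, the AZD2014 peak was wider than the DMSO peak in 17 (background 84.9%) and the rapamycin peak in 15 (background 76.6%). The median ratio of widths was 1.28 under AZD2014 and 1.15 under rapamycin, against 1.23 and 1.17 over 13367 such regions. The exceptions under AZD2014 were the end region of Crem and the Crem region 4.12 kb inside the gene.

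The rest of the pathway was examined through 29 genes with a start in the table used, among them eIF4E partners, kinases of MNK and CREB, SIK kinases and related factors. Of these, 28 had a peak within 1 kb of a start in all 3 lists (background 46.2% of protein-coding genes), among them Ep300, the paralogue of Crebbp. The exception was Rps6ka4, the gene of MSK2, a nuclear kinase that phosphorylates CREB, with a peak under AZD2014 alone (score 70.6). It lies in the same score band as the Crtc1 gene body peak, where 58.3% of AZD2014 peaks had no DMSO partner, as does the peak at Nr4a3 given next.

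Among 22 genes known as CREB targets, 17 had a start in the table, and 13 of these had a peak there in all 3 lists (background 46.2% of protein-coding genes). This list too was chosen with earlier results known, and nothing is drawn from the share. Nr4a3, an orphan nuclear receptor gene, had one under AZD2014 alone (score 73.3). Per1, a circadian clock gene, had one under DMSO (score 53.7) and AZD2014 (score 79.2) and not under rapamycin. Pde4d, a cAMP phosphodiesterase gene, and Ppargc1a, a transcriptional coactivator gene, had none at the starts used in any list. Their windows did hold peaks, 12 (DMSO), 15 (AZD2014) and 10 (rapamycin) at Pde4d and 2, 2 and 1 at Ppargc1a. Egr1, Sik1, Ccnd1, Ccna2 and Gem were counted by their windows only. The windows of all 22 genes summed to 70 DMSO, 88 AZD2014 and 67 rapamycin peaks, where the whole AZD2014 and rapamycin lists are 1.24 and 1.06 times as long as the DMSO list. The 3 peaks just named at Nr4a3 and Per1 all scored under 80 against list medians of 124 under DMSO and 134 under AZD2014.

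Depth is unknown because the sources used here give no read numbers, and a missing peak shows only that the authors' threshold was not reached in that library. As a check of the label, HSC genes had a start peak at 6 of 9 under DMSO and rapamycin and 7 of 9 under AZD2014, against 48.5%, 49.5% and 51.8% of protein-coding genes in the same order. Those without one in any list were Procr and Slamf1. The 3 T cell and 2 non-blood markers with a start in the table had none. Granulocyte and monocyte markers had start peaks at 0, 0 and 2 of 5 genes (Mpo and Ly6c2 under rapamycin), mast cell and basophil markers at 0, 0 and 1 of 4 (Cpa3), erythroid markers at 2, 3 and 2 of 4, megakaryocyte markers at 2 of 3 and B cell markers at 1 of 3 in every list, in the order DMSO, AZD2014 and rapamycin. Their part in the results above was not tested.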

How the data were processed

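ATAC-seq peak lists of 3 libraries (DMSO, AZD2014 and rapamycin, 1 each, grouped by title) were used. Transposition of 50000 cells per library took 30 min at 37 °C, per the labels' protocols. The build was mm10 and CASAVA is named, per the submitters' processing notes. The authors deposited 1 list per library with a score per peak, lowest at 50.0 in each, and peak names that carry the word MACS. The caller's settings, the aligner and the handling of duplicates are not stated in these sources, and they set which weak peaks are listed and how wide they are.

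Peaks were partners when sharing at least 1 bp. Genes and starts came from RefSeq tables (GRCm38.p6), with a start for 17491 protein-coding genes and 8 of the 10 members. Exons were not separated from introns. The members and gene lists were chosen with earlier results of these data known. All 10 members and all their window regions were named, with listed genes whose start status differed or was empty in all lists, and the neighbouring genes named were those with a start at, or a body around, a window region. Listed pathway genes without a start in the table are not reported here. The E-box was searched after the sequences were seen, the cAMP response element as planned. No test was possible with 1 library per condition. Alternatives were other overlaps, windows, list lengths and region sets. Simulated lists served to test the overlap code. Python 3.11.15, numpy 2.4.6, pandas 2.3.3, scipy 1.17.1, networkx 3.6.1 and matplotlib 3.10.9 were used.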

Additional observations from a re-analysis of the deposited data

How the results depend on the processing

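Of 131 values recomputed under the alternative settings, 96 stayed within 1.5 times the reported value. The 8 gene-start peaks were found in each list under every start window and list length tried. The window peaks (22, 27 and 22 under DMSO, AZD2014 and rapamycin) were 14, 15 and 14 in the gene body alone and 35 and 34 under DMSO and rapamycin with 50 kb on either side. Lists of equal length gave 22, 25 and 21, and leaving out peaks at the start of another gene gave 15, 21 and 16. The regions common to all lists (20) were 13 in the gene body alone and 31 with 50 kb. There the regions under AZD2014 alone and under both inhibitors were 1 and 1 in the gene body, and those under DMSO alone 2 and under DMSO and AZD2014 1 with 50 kb. With lists of equal length no region was under both inhibitors alone and 1 was under rapamycin alone. In the upper 50% by score, 2 regions were under AZD2014 alone, 1 under both inhibitors, 0 under DMSO alone and 1 under DMSO and rapamycin. A reciprocal overlap of 50% gave 2 regions under DMSO alone. Peaks set to 200 bp gave 1 under rapamycin alone, 3 under DMSO alone and 1 under DMSO and AZD2014.

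Peaks without a partner moved as follows. DMSO peaks without an AZD2014 partner (1) were 2 with reciprocal overlap, 3 with peaks of 200 bp and 2 with 50 kb, and AZD2014 peaks without a DMSO partner (7) were 2 in the gene body alone. DMSO peaks without a rapamycin partner (1) were 2, 4 and 3 in the same 3 settings, and rapamycin peaks without a DMSO partner (2) were 4 with peaks of 200 bp, 1 with lists of equal length and 1 in the gene body. Rapamycin peaks without a DMSO partner (2) and DMSO peaks without a rapamycin partner (1) were equal in number in 5 of the 6 alternatives, which are reciprocal overlap, peaks of 200 bp, lists of equal length, the gene body and 50 kb, so that the difference depends on the setting. AZD2014 peaks without a rapamycin partner (5) were 1 in the gene body, and rapamycin peaks without an AZD2014 partner (0) were 1 with peaks of 200 bp and 1 with lists of equal length. Among the 19 common regions with 1 peak in each list, 1 in place of 2 was at least 10 points lower under rapamycin than AZD2014. The background over all common regions was 17.3%. The smaller windows hold fewer peaks by construction, and for the other changes the cause was not tested. No paired analysis was possible because there was 1 library per condition. Unknown depth limits every statement that a peak is missing from a list.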
